A study of Homo sapiens with 8 samples.

Results

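Ribosome biogenesis in this series was followed through 49 listed genes that encode subunits and regulators of RNA polymerase I and factors that process pre-rRNA and build the 40S and 60S subunits. The members were every probe set that the platform annotation maps to those genes, and 42 of the 49 had a probe set of their own, all 42 of them expressed, among 8429 expressed genes in all. For NOP56, DKC1, BOP1 and PPAN the probe sets carried symbols of several genes and no value is given, and GNL3, DDX18 and EBNA1BP2 had no entry in the annotation table used here. The study compared compounds that block the unfolded protein response, the program that cells start when unfolded protein gathers in the endoplasmic reticulum. HT1080, a human fibrosarcoma cell line, was cultured in RPMI medium with 2 mg/mL glucose and serum, and RNA was hybridized to U133 Plus 2.0 GeneChips of Affymetrix, on which sets of short oligonucleotide probes represent each transcript.

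The 8 arrays held 1 condition each. Under normal growth conditions these were no compound (control), 10 µM compound C (CC, a kinase inhibitor also called dorsomorphin), 10 µM versipelostatin (VST, a macrocyclic microbial product) and 100 µM phenformin (Phen, a biguanide that inhibits mitochondrial respiration). The other 4 arrays held cells in 10 mM 2-deoxy-D-glucose (2DG, a glucose analogue that mimics glucose deprivation), with no compound or with 1 of the compounds at its dose above. All cells were treated for 18 h, and cRNA was labelled from 100 ng of total RNA per array. With 1 array per condition no difference below has a replicate error, a test or a p-value. Values are log2 intensities, a difference of 1 is 2-fold, and an expressed probe set reached 6 on at least 1 array. Each gene is read by its brightest expressed probe set unless another is named. Of the lists used to check the cell type, 5 of 5 fibrosarcoma line markers were expressed and 0 of 7 markers of epithelial, blood, endothelial and liver cells. The signal of the poly-A control transcripts exceeded that of the control array by 0.35 log2 units for 2DG, 1.22 for 2DG+CC, 0.85 for 2DG+VST and 0.67 for 2DG+Phen, and by 0.05 to 0.28 where a compound was given alone. Scaling to these transcripts, called poly-A scaling here, lowers every difference from 2DG by 0.87, 0.50 and 0.32 in the order CC, VST and Phen, so smaller positive differences become negative under that scaling, and the orders of arrays given below are those of the deposited values.

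A cell makes ribosomes in the nucleolus, where RNA polymerase I transcribes the rDNA repeats into a long pre-rRNA. Small nucleolar ribonucleoproteins (snoRNPs) guide the modification of its nucleotides, the small subunit processome cleaves it and starts the 40S particle, and a separate chain of assembly factors matures the 60S particle. The process takes a large part of the energy of a growing cell and is known to be adjusted to nutrients, with the transcription factor MYC as a known activator of many of its genes.

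MYC binds the E-box CACGTG, a palindrome that reads the same on both strands, and this motif was counted in RefSeq promoter windows (GRCh38.p14) from 250 bases before a gene's start to 50 after it. Of the 49 members 41 had a window, and 19 of these genes (46.3%) held the motif in 1 or more of their windows. Among the expressed genes of the array with a window the share was 13.7%, and over all 35116 promoter windows of this length it was 7.26%, against 39.2% of the members' own windows. The motif was present for 9 of 15 genes of the 40S group and 7 of 13 of the 60S group, and for 0 of 4 RNA polymerase I genes and 0 of 3 nucleolar phosphoproteins and histone chaperones. The sequences below are those of 6 members whose values are described further on, printed on the strand of the gene with the E-box in capitals. In LYAR it begins 64 bases before the start, and in the others it lies after the start, beginning at base 29 in BYSL, 15 in MRTO4, 36 in NOP2, 4 in GNL2 and 20 in NOC3L.
BYSL (chr6:41921515-41921544, plus strand): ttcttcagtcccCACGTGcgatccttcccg
LYAR (chr4:4290068-4290097, minus strand): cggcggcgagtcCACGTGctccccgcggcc
MRTO4 (chr1:19251807-19251836, plus strand): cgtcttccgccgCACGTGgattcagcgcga
NOP2 (chr12:6568242-6568268, minus strand): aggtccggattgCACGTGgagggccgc
GNL2 (chr1:37595917-37595946, minus strand): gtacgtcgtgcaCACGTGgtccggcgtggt
NOC3L (chr10:94362903-94362932, minus strand): tagggacttcggCACGTGtgtcattccccg
The motif is a match of letters, and binding was not measured. With phenformin under normal growth conditions the 17 expressed members with the motif had a median difference from control of −0.54 and the 19 without it one of −0.47. In 2DG+CC against 2DG the medians were 0.35 with the motif and −0.02 without it. Over all expressed genes with a window these medians were −0.12 with and −0.02 without the motif for phenformin, and −0.25 and −0.24 for 2DG+CC. In 2DG+Phen against phenformin alone the members with the motif had a median of 0.73, with 17 of 17 above 0, and those without it one of 0.34, with 15 of 19 above 0. The medians of all expressed genes with a window were −0.19 with the motif (373 of 970 above 0) and −0.24 without it (2190 of 6107) in that comparison. Poly-A scaling lowers it by 0.39, under which the median of the members without the motif is negative, and with 1 array per condition the difference between the sets has no test.

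On the Phen array most of the ribosome biogenesis genes had their lowest value. The widest span was that of IMP3 (2.86 between its lowest and highest array) and the narrowest that of NPM1 (0.14), with a median span of 1.11 against 1.33 over all expressed genes, and 25 of 42 members spanned 2-fold or more. As the median span over all genes is itself above 2-fold, most of all genes spanned 2-fold or more too. The Phen array was the lowest of the 8 for 22 of 42 members, where it was the lowest for 7.87% of all expressed genes, and it was the highest for 0 (10.9% of all genes). The 2DG+CC array was the lowest for 10 members (31.2% of all genes) and the highest for 14 (18.8% of all genes). The 2DG+Phen array was the lowest for 0 members, where it was the lowest for 17.9% of all genes, and the highest for 8 (8.86% of all genes).

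**Figure D1:**
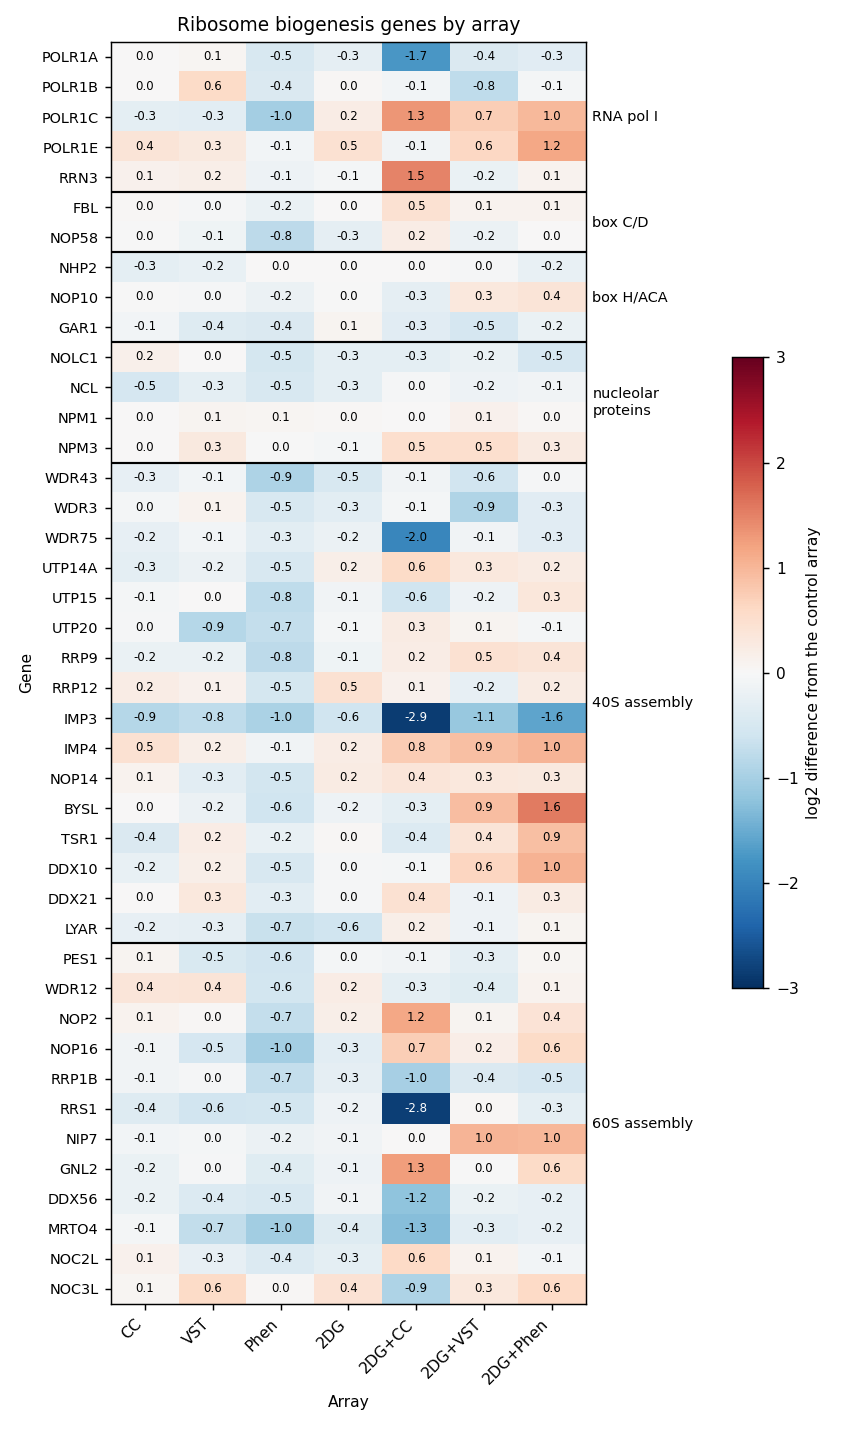
Log2 difference from the control array for the 42 expressed ribosome biogenesis genes (rows, grouped by role) on the other 7 arrays (columns), with each value printed and the colour scale in log2 units. The Phen column is blue for nearly all genes, with 39 of 42 values below 0, and the 2DG+CC column holds both the lowest values (IMP3, RRS1) and some of the highest (RRN3, POLR1C, GNL2).

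2DG alone left these genes near their control levels. The median difference of the 42 members was −0.06 (0.01 over all genes), with 40 of 42 within 1.5-fold (81.9% of all genes), and 0 were 2-fold lower (1.90% of all genes) and 0 were 2-fold higher (3.06%). The lowest was −0.60 for IMP3 and the highest 0.46 for RRP12. Compound C alone gave a median of −0.04 (0.04 over all genes), 0 members 2-fold lower (2.70% of all genes) and 0 higher (3.88%), with 41 of 42 within 1.5-fold (77.9% of all genes). Versipelostatin alone gave a median of −0.04 (−0.02 over all genes), 0 lower (2.48% of all genes) and 0 higher (2.46%), with 39 of 42 within 1.5-fold (79.9% of all genes). Under poly-A scaling, the median for 2DG alone was −0.41 (−0.34 over all genes).

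With phenformin under normal growth conditions nearly all of these genes were below their control values. Of 42 members 39 were below their control value, where 52.5% of all genes were, and the median difference was −0.48 against −0.03 over all genes. 13 of 42 were at least 1.5-fold lower (10.9% of all genes). At least 2-fold lower were 3 (2.17% of all genes), MRTO4 (−1.03), NOP16 (−1.03) and POLR1C (−1.02), all at the edge of the threshold, and 0 were 2-fold higher (2.66%). The 3 members not below control were NPM1 (0.05), NOC3L (0.03) and NHP2 (0.01). The dimmer expressed probe sets of NPM1 were below control, at −0.20 and −0.23, so its sign differs between probe sets. The sign held under the scalings, with 38 members below 0 when arrays were centred on their medians (48.5% of all genes) and 42 under poly-A scaling (76.7% of all genes). The count past 2-fold went from 3 to 0 with centring and 10 under poly-A scaling, where 147 and 550 of all 8429 genes were 2-fold lower. RNA was taken from whole cultures, so a lower level in every cell and a loss in some of the cells cannot be told apart, and all of these values rest on a single Phen array. On that array all 5 fibrosarcoma line markers were above their control values, at 3.54 for the matrix protein FN1, 0.92 for the protease MMP14, 0.30 for the surface receptor CD44, and 0.08 and 0.15 for the other two, and their part in the result was not tested.

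By role, the lower values with phenformin covered all 5 RNA polymerase I genes (median −0.43), both box C/D genes (−0.49), 2 of 3 box H/ACA genes (−0.17), 3 of 4 nucleolar phosphoproteins and histone chaperones (−0.24), all 16 genes of the 40S group (−0.54) and 11 of 12 genes of the 60S group (−0.55). These medians are over few genes in the smaller groups. Among the 12 members with several expressed probe sets, all probe sets of the gene had the same sign in 11, and the median SD between probe sets of a gene was 0.08.

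With phenformin in 2DG, 27 of 42 members were above their value in 2DG alone (35.9% of all genes) and 15 below it (64.0%). Against 2DG alone the median difference was 0.17 (−0.26 over all genes), 0 of 42 members were 2-fold lower where 21.8% of all genes were, and 3 were 2-fold higher (4.84% of all genes), BYSL (1.72), NIP7 (1.11) and DDX10 (1.08). The same 2DG+Phen array set against phenformin alone gave a median of 0.64 (−0.23 over all genes). In that comparison 38 of 42 members were above 0 (36.6% of all genes), 11 were 2-fold higher (5.59% of all genes) and 0 were 2-fold lower (18.9%). With arrays centred 40 were above 0 (49.0% of all genes), 15 were 2-fold higher and 0 lower. Under poly-A scaling 25 were above 0 (17.9% of all genes), 4 were 2-fold higher and 1 lower. Of all genes past 2-fold, 36.4% were higher with centring and 8.20% under poly-A scaling. The share of all genes that were past 2-fold under these scalings is not given, so the member counts cannot be set against it. This comparison uses the same Phen array as the one above, so a low reading on that array enters both. Below 0 with phenformin under normal growth conditions and above 0 with phenformin in 2DG, a pair of comparisons that share no array, were 26 of 42 members against 18.6% of all genes. That count was 36 (24.2% of all genes) with arrays centred and 15 (15.1%) under poly-A scaling, under which the median in 2DG was −0.15 (−0.58 over all genes) and that against phenformin alone 0.25 (−0.61 over all genes).

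**Figure D2:**
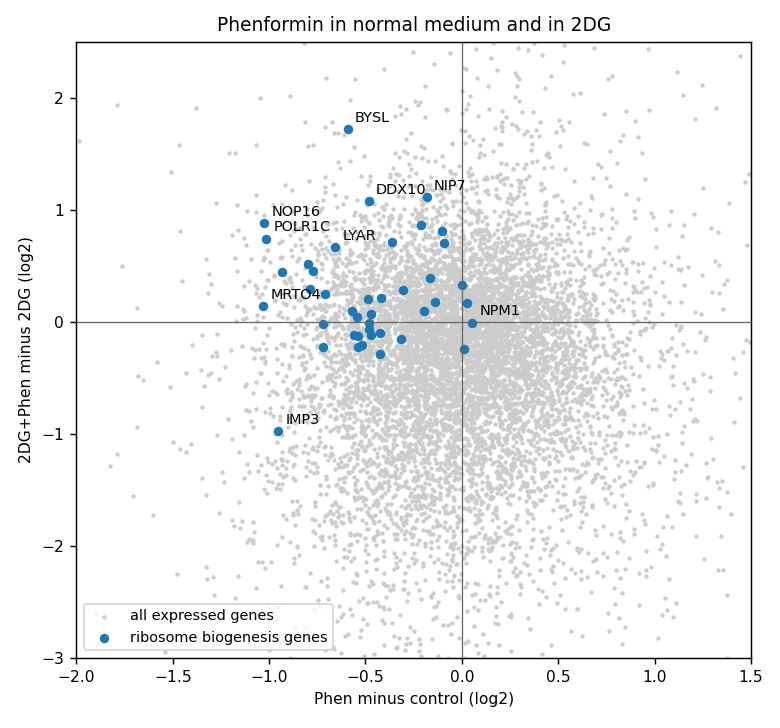
Log2 difference with phenformin under normal growth conditions (horizontal axis) against that in 2DG (vertical axis) for the 42 ribosome biogenesis genes (blue) and all expressed genes (grey, 219 of which lie outside the axes). The upper left area, below control in normal medium and above 2DG alone in 2DG, holds 26 of the 42 genes, with BYSL at its top, and IMP3 lies below 0 on both axes.

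With versipelostatin in 2DG few members were 2-fold from their value in 2DG alone. The median difference from 2DG was 0.09 (−0.18 over all genes), 0 of 42 members were 2-fold lower where 20.0% of all genes were, and 2 were 2-fold higher (4.09% of all genes), NIP7 (1.13) and BYSL (1.08), both also 2-fold higher with phenformin in 2DG, a comparison that shares the 2DG array. Under poly-A scaling the median was −0.40 (−0.68 over all genes), with 6 lower (2983 of all 8429 genes) and 0 higher (134). Against versipelostatin alone the median was 0.14 (−0.14 over all genes), with 2 of 42 lower (16.6% of all genes), POLR1B (−1.33) and WDR3 (−1.03), and 3 higher (3.74%), BYSL (1.09), NIP7 (1.07) and POLR1C (1.05). Under poly-A scaling that median was −0.66 (−0.94 over all genes), with 38 members below 0 (93.9% of all genes), 12 lower and 0 higher. Of all genes past 2-fold there, 1.9% were higher. The share of all genes that were 2-fold lower there is not given, so the 12 cannot be set against it.

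With compound C in 2DG, 6 of 42 members were 2-fold lower than in 2DG alone, a share below that of all genes (25.4%), and 4 were 2-fold higher, near the share of all genes (8.33%). The median was −0.01 (−0.23 over all genes), and the middle 50% of the members spanned 0.96, narrower than the 1.36 over all genes. The members 2-fold lower were RRS1 (−2.66), IMP3 (−2.26), WDR75 (−1.77), POLR1A (−1.47), NOC3L (−1.36) and DDX56 (−1.10). Those 2-fold higher were RRN3 (1.56), GNL2 (1.40), POLR1C (1.09) and NOP16 (1.03). Under poly-A scaling, 16 were lower (4578 of all 8429 genes) and 0 higher (190), and the median was −0.87 (−1.10 over all genes). Against compound C alone, 6 of 42 were lower (26.4% of all genes) and 4 higher (8.67%), POLR1C (1.62), GNL2 (1.45), RRN3 (1.36) and NOP2 (1.05). The median was 0.05 (−0.24 over all genes), or −1.07 (−1.35 over all genes) under poly-A scaling, with 39 members below 0 (92.9% of all genes). Under that scaling 22 were lower and 0 higher, so that none of these 4 is then 2-fold higher. The median over all genes, −1.35, is itself past 2-fold, so most of all genes were 2-fold lower there too. Of all genes past 2-fold there, 2.47% were higher.

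**Figure D3:**
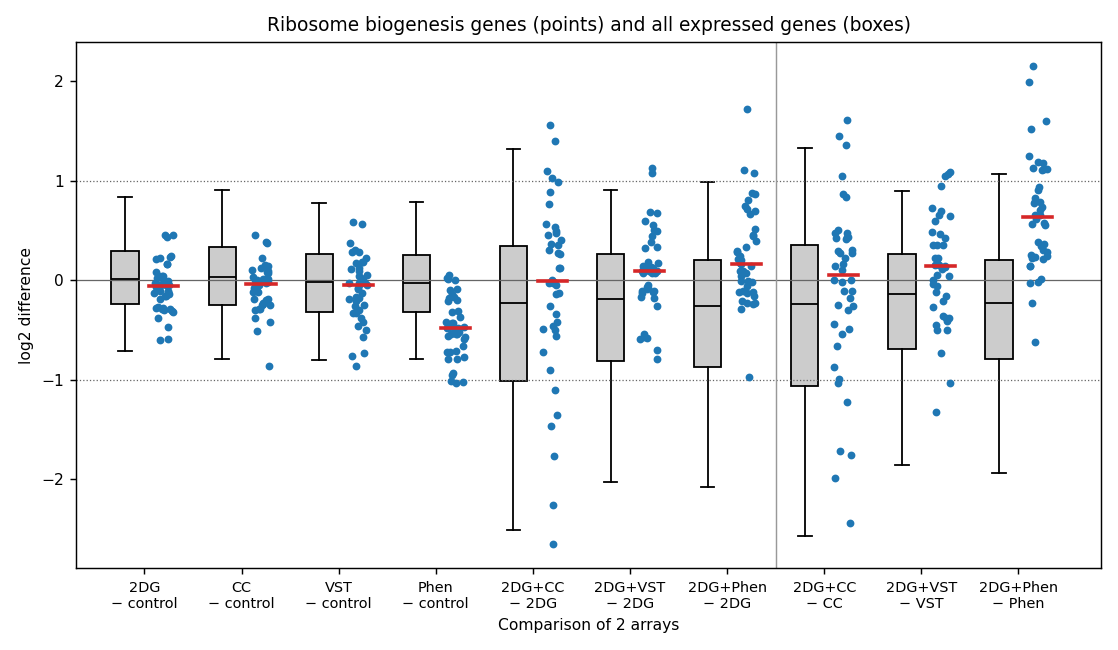
Log2 differences of the 42 ribosome biogenesis genes (blue points, median in red) and of all expressed genes (grey boxes with the median and middle 50%, whiskers from percentile 5 to 95) in 10 comparisons of 2 arrays, with dotted lines at 2-fold. The median of the points lies below the box median with phenformin alone (−0.48) and above it in the comparison of 2DG+Phen with phenformin alone (0.64), and in 2DG+CC against 2DG they run from −2.66 to 1.56.

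The members are given by role below, with the values in the order no compound, CC, VST and Phen. RNA polymerase I holds a catalytic core of large subunits, and RRN3 carries the growth-regulated signal that lets it start at the rDNA promoter. POLR1C, a subunit shared with RNA polymerase III, read 8.24, 7.95, 7.91 and 7.22 in normal medium and 8.47, 9.56, 8.96 and 9.21 in 2DG. It was lowest with phenformin alone and highest in 2DG+CC, and its second probe set gave −0.79 with phenformin alone and 1.13 in 2DG+CC. RRN3 read 7.53, 7.67, 7.71 and 7.39 in normal medium and 7.46, 9.02, 7.33 and 7.63 in 2DG. It stood apart on the 2DG+CC array only, where it was 1.56 above 2DG, and the other 7 arrays lay between 7.33 and 7.71.

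POLR1A, the largest subunit, read 6.03, 6.04, 6.09 and 5.55 in normal medium and 5.76, 4.29, 5.59 and 5.70 in 2DG, close to or under the expression limit of 6. Its brightest probe set was lowest in 2DG+CC, but a second expressed probe set was 0.71 higher there than in 2DG, so the direction for this gene differs between probe sets. POLR1B, the second largest subunit, read 9.29, 9.30, 9.86 and 8.86 in normal medium and 9.33, 9.20, 8.53 and 9.22 in 2DG. It was highest with versipelostatin alone and lowest with versipelostatin in 2DG, and its 4 probe sets gave between −1.75 and −0.80 for versipelostatin in 2DG but between −0.13 and 1.06 for compound C in 2DG. For phenformin in 2DG its brightest probe set gave −0.10 and the others between −2.06 and −0.67, so the size depends on the probe set. POLR1E, a subunit of the elongation-related dimer of the enzyme, read 7.84, 8.23, 8.13 and 7.75 in normal medium and 8.30, 7.73, 8.48 and 9.00 in 2DG. Its highest value was that of 2DG+Phen, 0.70 above 2DG.

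The snoRNP proteins spanned from 0.31 (NHP2) to just under 2-fold (NOP58) over the arrays. FBL, the methyltransferase of box C/D snoRNPs, read 11.23, 11.27, 11.21 and 11.04 in normal medium and 11.25, 11.70, 11.34 and 11.35 in 2DG. NOP58, a core protein of the same particles, read 10.69, 10.67, 10.56 and 9.90 in normal medium and 10.41, 10.90, 10.50 and 10.70 in 2DG. Both were lowest with phenformin alone and highest in 2DG+CC, with NOP58 at −0.79 from control and FBL at −0.19. The box H/ACA particles direct pseudouridylation. Of their core proteins, NHP2 read 12.21, 11.92, 12.00 and 12.22 in normal medium and 12.24, 12.21, 12.17 and 11.99 in 2DG. NOP10 read 11.79, 11.77, 11.75 and 11.62 in normal medium and 11.78, 11.52, 12.10 and 12.17 in 2DG. GAR1 read 10.12, 10.04, 9.74 and 9.69 in normal medium and 10.20, 9.77, 9.61 and 9.91 in 2DG. All 3 were within 1.5-fold of their reference array in the 7 comparisons, the farthest being GAR1 at −0.58 in 2DG+VST against 2DG.

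Among the nucleolar phosphoproteins and histone chaperones was the member with the smallest span. NPM1, nucleophosmin, was the brightest member and read 13.18, 13.20, 13.27 and 13.24 in normal medium and 13.23, 13.20, 13.32 and 13.22 in 2DG. That span is of its brightest probe set. Its dimmest expressed probe set ran from 11.38 with compound C alone, −0.77 from control, to 12.20 in 2DG. NCL, nucleolin, read 11.61, 11.10, 11.30 and 11.12 in normal medium and 11.30, 11.58, 11.44 and 11.51 in 2DG. It was highest on the control array and lower with every compound alone, at −0.51 from control with compound C. NPM3, a chaperone related to nucleophosmin, read 8.83, 8.83, 9.11 and 8.83 in normal medium and 8.78, 9.34, 9.33 and 9.11 in 2DG. Its values with a compound in 2DG were above 2DG alone by 0.33 to 0.56, of which that for compound C becomes negative and the others lie close to 0 under poly-A scaling. NOLC1, a phosphoprotein that carries snoRNPs, read 11.06, 11.21, 11.08 and 10.54 in normal medium and 10.77, 10.77, 10.87 and 10.56 in 2DG. This brightest probe set was at 0.01 in 2DG+CC against 2DG, while its other 2 probe sets were at 1.63 and 1.62, and at 1.36 and 1.23 in 2DG+Phen, so the level of NOLC1 in these conditions depends on the probe set.

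**Figure D4:**
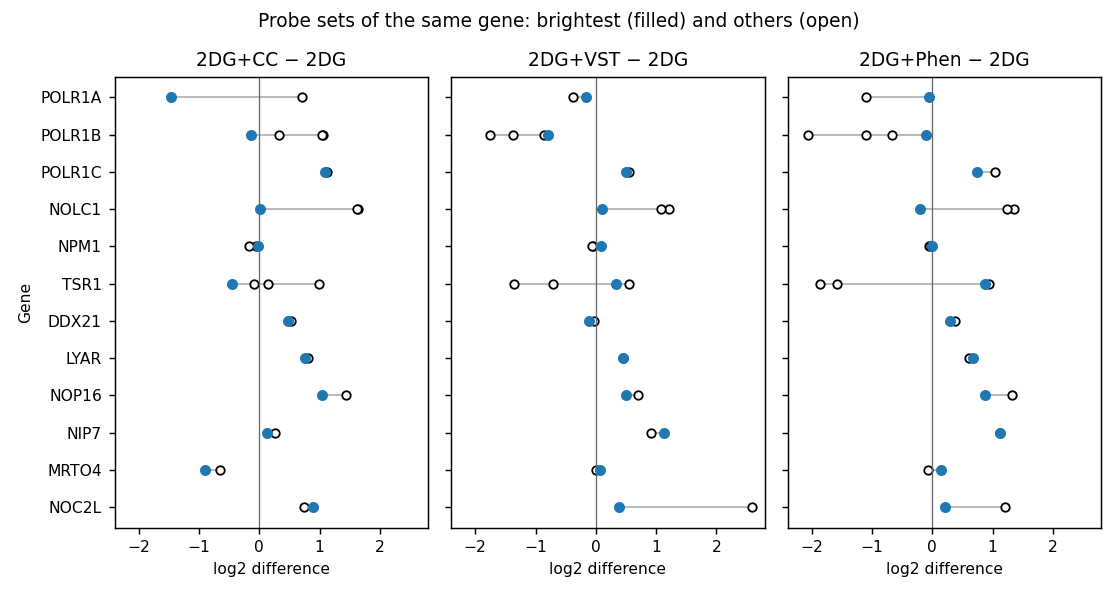
Log2 difference from 2DG alone for each expressed probe set of the 12 ribosome biogenesis genes that have several (rows), with compound C, versipelostatin or phenformin in 2DG (panels), filled points for the brightest probe set and open points for the others. Probe sets of POLR1C, DDX21, LYAR and NIP7 lie close together, and those of POLR1A, POLR1B, NOLC1, TSR1 and NOC2L spread over more than 1 log2 unit in at least 1 panel.

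The member with the largest span belonged to the small subunit processome and 40S group. IMP3, a protein of the U3 snoRNP that guides early cleavage, read 9.87, 9.00, 9.11 and 8.91 in normal medium and 9.27, 7.01, 8.72 and 8.29 in 2DG. It was highest on the control array and lower on every other, with −2.26 in 2DG+CC against 2DG. BYSL, bystin, needed for 40S maturation, read 8.25, 8.25, 8.08 and 7.66 in normal medium and 8.09, 7.95, 9.17 and 9.81 in 2DG. Its values with versipelostatin and phenformin in 2DG were above those of the other 6 arrays, and its lowest value was that of phenformin alone, so that 2DG+Phen stood 2.16 above phenformin. WDR75, a processome subunit that also supports rDNA transcription, read 8.26, 8.02, 8.18 and 7.94 in normal medium and 8.07, 6.30, 8.14 and 7.92 in 2DG. Only its 2DG+CC value stood apart, the other 7 lying between 7.92 and 8.26. DDX10, an RNA helicase, read 8.56, 8.33, 8.73 and 8.07 in normal medium and 8.51, 8.49, 9.19 and 9.59 in 2DG. Like BYSL it was lowest with phenformin alone and highest with phenformin in 2DG. DDX21, a helicase of the nucleolus, varied least in the group and read 11.78, 11.79, 12.08 and 11.47 in normal medium and 11.74, 12.22, 11.63 and 12.03 in 2DG.

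The other 11 members of the 40S group were all below control with phenformin alone. The lowest of them were WDR43 (−0.93), RRP9 (−0.80), UTP15 (−0.77), UTP20 (−0.72) and LYAR (−0.66), and those nearest to control were IMP4 (−0.10) and TSR1 (−0.21). WDR43 and UTP15 are processome subunits that act with the rDNA, RRP9 belongs to the U3 snoRNP, UTP20 is a large scaffold of the processome and LYAR is a nucleolar protein of proliferating cells. The remaining 4, WDR3 (−0.48), UTP14A (−0.47), RRP12 (−0.54) and NOP14 (−0.54), lay between these. In 2DG+Phen against 2DG, 11 of the 16 members of the group were above 0 (35.9% of all genes), IMP4 at 0.81, TSR1 at 0.87 and LYAR at 0.67 among them. For TSR1, a factor of late 40S maturation, 1 further probe set gave 0.94 there and another 2 gave −1.58 and −1.87, so its direction differs between probe sets. Versipelostatin alone left UTP20 at −0.86 from control, the lowest of the 42 members in that comparison.

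In the 60S group the span was widest for RRS1, a factor that brings the 5S ribonucleoprotein to the early particle, which read 10.11, 9.73, 9.54 and 9.57 in normal medium and 9.95, 7.29, 10.13 and 9.82 in 2DG. The other 7 arrays lay between 9.54 and 10.13, and only 2DG+CC was low. NOP2, a methyltransferase of the large rRNA, read 8.00, 8.10, 8.04 and 7.29 in normal medium and 8.17, 9.15, 8.08 and 8.41 in 2DG. NOP16, a nucleolar protein of the pre-60S particle, read 10.97, 10.85, 10.47 and 9.94 in normal medium and 10.66, 11.69, 11.17 and 11.54 in 2DG. Both were lowest with phenformin alone and highest in 2DG+CC, and the second expressed probe set of NOP16 gave 1.44 for 2DG+CC against 2DG where the brightest gave 1.03. GNL2, a GTPase of 60S assembly, read 8.68, 8.49, 8.65 and 8.31 in normal medium and 8.54, 9.94, 8.66 and 9.25 in 2DG, again highest in 2DG+CC. PES1, which forms a complex with BOP1 and WDR12, varied little and read 8.07, 8.15, 7.61 and 7.50 in normal medium and 8.02, 7.97, 7.76 and 8.12 in 2DG. It was lowest with phenformin alone and at −0.05 in 2DG+CC against 2DG.

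Of the other 7 members of the 60S group, MRTO4, a factor that holds the place of the ribosomal stalk, had values of −1.03 with phenformin alone and −0.73 with versipelostatin alone, and its second probe set gave −1.15 and −1.06. NIP7, an assembly factor that acts on pre-rRNA, read between 9.10 and 9.29 on 6 arrays and 10.30 and 10.28 with versipelostatin and phenformin in 2DG, with both of its probe sets in the same direction. DDX56, a helicase, and NOC3L, a factor of pre-60S transport, were at −1.10 and −1.36 in 2DG+CC against 2DG. The partner of PES1, WDR12, was at −0.56 with phenformin alone, RRP1B at −0.72 and NOC2L at −0.42. For NOC2L, the partner of NOC3L, the brightest probe set gave 0.39 with versipelostatin in 2DG and a dimmer one 2.59.

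Genes of the same processes outside the list were read in the same way, by lists chosen with earlier results of these data known. Of 38 other genes of the small subunit processome and 40S assembly, 35 were below control with phenformin alone (median −0.65), and of 36 other 60S assembly genes 32 were (−0.41), where 52.5% of all genes were. Among 16 other RNA polymerase I subunits and rDNA factors 11 were below control (−0.21). RNA polymerase III subunits were below control for 8 of 13 (−0.23) and the own subunits of RNA polymerase II for 5 of 7 (−0.16). In 2DG+Phen against phenformin alone, 29 of the 38 other 40S genes, 26 of the 36 other 60S genes and 11 of the 16 other RNA polymerase I genes were above 0 (36.6% of all genes), with medians of 0.42, 0.47 and 0.46. Under poly-A scaling these medians were 0.03, 0.09 and 0.08, with 20, 19 and 9 genes above 0 (17.9% of all genes).

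Some of these genes differed more between arrays. PNO1, needed for late steps of 40S maturation, was at −1.21 with phenformin alone and at 2.70, 2.05 and 2.64 against 2DG with compound C, versipelostatin and phenformin. RCL1, a protein of 18S rRNA processing, was at 3.12, 1.45 and 2.26 in that order, and RRP36, another processome protein, at −1.70, 0.28 and 0.32. The 60S factors BRIX1, RRP15 and URB2 were at 1.40, 1.51 and 1.57 in 2DG+CC. UBTF, which binds the rDNA promoter and keeps rDNA open, was lower than in 2DG on all 3 arrays with a compound in 2DG, at −2.13, −1.56 and −2.02, and at −1.39 with versipelostatin alone. TAF1A and TAF1D, subunits of the promoter selectivity factor of RNA polymerase I, were higher than in 2DG, TAF1A at 1.25, 1.23 and 1.84 and TAF1D at 0.82, 1.25 and 1.38, of which the TAF1D value for compound C becomes negative under poly-A scaling. TAF1B, another subunit of that factor, was lower, at −0.35, −0.76 and −1.26, and TAF1C did not reach the expression limit.

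MYC itself read 8.53, 9.10, 9.74 and 8.88 in normal medium and 8.89, 10.67, 12.33 and 12.32 in 2DG. Its values were highest with versipelostatin and phenformin in 2DG, 3.45 and 3.44 above 2DG, with compound C in 2DG at 1.78, and they stay positive under poly-A scaling. With phenformin alone, where 39 of 42 members were below control, MYC was 0.35 from control. Among the 5 expressed genes of MYC and its partners, differences there ran from −1.12 for MAX to 1.25 for MXD1. Of these 5, 4 were above 0 and 1 below. On the arrays with the highest MYC values the members with the E-box had medians of 0.09 (versipelostatin) and 0.24 (phenformin) against 2DG, with 11 of 17 and 15 of 17 above 0, and those without it 0.07 and 0.17, with 10 of 19 in each case above 0, and all 4 medians become negative under poly-A scaling. Over all expressed genes with a window, 362 and 338 of the 970 with the E-box were above 0, with medians of −0.25 and −0.30, and those without it had medians of −0.18 and −0.25.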

How the data were processed

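Expression was measured in HT1080 cells with 8 Affymetrix U133 Plus 2.0 GeneChips, 1 for each condition. The authors deposited log2 intensities made with RMA, per the labels, which corrects the background, normalizes arrays against each other and summarises the probes of a probe set. This removes shifts shared by all probe sets of an array, so differences are relative to the rest of the array. Which software ran RMA is not given in the sources used here. The values were used as they are.

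The table holds 54675 probe sets. After 62 controls were set aside, those that reached 6 on any array were kept (15503). The platform annotation gave gene symbols, used only for probe sets with 1 symbol, and the brightest kept probe set (highest mean) stood for its gene. Differences were taken in 7 comparisons of 2 arrays, and in 3 more of 2DG under a compound. A gene was counted from a 2-fold difference. Lists are described by counts and medians beside those of all 8429 expressed genes. Probe sets of 1 gene gave the only technical spread, and the number of arrays limits the precision. The calculation was tested on simulated data with known answers.

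In each role group the 4 members with the largest range over the arrays and the one with the smallest are given with all 8 values, and in each other list up to 3 genes with the largest difference, and MYC. TAF1B was added as a subunit of the same factor as TAF1A and TAF1D. The members and lists were chosen with earlier results of these data known. The alternatives included fold thresholds of 1.5 and 3, limits of expression at 5, at 7, at a mean of 6 and none, centring, quantile normalization, scaling on the poly-A controls, the median over probe sets and omitting probe sets prone to match several transcripts. Reading the dimmest probe set and including probe sets with several symbols were chosen after seeing the data. Promoter windows came from RefSeq (GRCh38.p14), which gave none for POLR1E, NOP58, NOLC1, RRP12, BOP1, RRP1B, RRS1 and DDX18. Python 3.11.15 was used with pandas 2.3.3, numpy 2.4.6 and matplotlib 3.10.9.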

Additional observations from a re-analysis of the deposited data

Results flagged for a closer look

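For 4 ribosome biogenesis genes phenformin gave differences of 1.5-fold or more in opposite directions in the presence and absence of 2DG, and the gap between them was not tested, with 1 array in each condition. The share of all genes that meet this rule was not counted, so the 4 cannot be set against it. BYSL was at −0.59 from control under normal growth conditions and 1.72 from 2DG in 2DG, a gap of 2.32. NOP16 was at −1.03 and 0.88, a gap of 1.90. POLR1C was at −1.02 and 0.74, a gap of 1.76, and LYAR at −0.66 and 0.67, a gap of 1.33. Scaling on the poly-A controls lowers the first value of each gene by 0.28 and the second by 0.32.

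The array also carries control probe sets for the rRNA itself, which the comparisons above do not use. The 3′ probe set for 18S rRNA was at 12.62 in 2DG+CC and 11.61 on the control array, a difference of 1.01. The 5′ probe set for 28S rRNA differed by 1.23 in 2DG+CC. Its middle probe set differed from control by 1.14 with compound C alone, 2.03 in 2DG+CC and 1.06 in 2DG+VST. The other 18S probe sets were at −0.07 and 0.13 in 2DG+CC, so probe sets of 1 rRNA gave different values. The poly-A controls differed from the control array by 0.10 with compound C, 1.22 in 2DG+CC and 0.85 in 2DG+VST, and their part in these values was not tested. rRNA is not the target of the labelling, so these signals are no measure of rRNA amount.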

How the results depend on the processing

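Each condition has 1 array, so no value has a replicate error. No analysis paired by replicate was possible because each condition has 1 array.

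Scaling on the poly-A controls moved the medians to −0.41 (2DG against control), −0.14 (CC), −0.76 (Phen), −0.87 (2DG+CC against 2DG), −0.40 (2DG+VST) and −0.15 (2DG+Phen), so the last 2 turned sign. It gave 10 members lower with phenformin alone, 16 lower and 0 higher in 2DG+CC, 6 lower and 0 higher in 2DG+VST, and 1 lower and 1 higher in 2DG+Phen. Of all 8429 genes the counts in that order were 550, then 4578 and 190, 2983 and 134, and 2644 and 233. Centring arrays on their medians gave −0.12 for CC and 0.21, 0.32 and 0.45 for CC, VST and Phen in 2DG, with 0 lower with phenformin alone and 7 higher in 2DG+Phen. With that centring 147 of all 8429 genes were lower with phenformin alone and 729 higher in 2DG+Phen. The median in 2DG+CC, −0.01 as deposited, is thus above or below 0 by the scaling. Over all genes 24.7% of those past 2-fold in 2DG+CC were higher, against 3.98% with the poly-A scaling and 36.3% with centring, and with phenformin alone 55.0%, 16.0% and 63.1%. Quantile normalization gave medians of −0.06 (2DG), −0.05 (CC), −0.04 (VST) and −0.46 (Phen) against control, and 0.01 (2DG+CC), 0.09 (2DG+VST) and 0.20 (2DG+Phen) against 2DG.

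At a 1.5-fold threshold the members lower numbered 2 (2DG), 1 (CC), 3 (VST) and 13 (Phen) against control. Of all 8429 genes 615, 791, 905 and 918 were lower in that order. Against 2DG the members lower numbered 8 in 2DG+CC, 3 in 2DG+VST and 1 in 2DG+Phen (3117, 2707 and 2982 of all genes). Those higher numbered 7, 5 and 10 (1397, 1001 and 970 of all genes), near the share of all genes in 2DG+CC and 2DG+VST. At a 3-fold threshold 0 were lower with phenformin alone, 3 lower and 0 higher in 2DG+CC, 0 higher in 2DG+VST and 1 higher in 2DG+Phen. Of all 8429 genes the counts were 21, 1230, 280, 116 and 166 in that order.

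The median over probe sets gave 0.16 in 2DG+CC, 1 lower with phenformin alone, 1 lower and 4 higher in 2DG+VST, and 5 higher in 2DG+Phen. Of all 8429 genes these counts were 176, 1611, 386 and 434 in that order. Omitting probe sets prone to match several transcripts left 31 members. It gave 1 lower with versipelostatin alone, 1 lower with phenformin alone, 2 lower in 2DG+VST, and 2 lower and 5 higher in 2DG+Phen. Of the 5843 genes then read, 212, 183, 1327, 1474 and 331 were counted in that order. The dimmest expressed probe set, chosen after seeing the data, gave 0.27 as the median in 2DG+CC, 2 lower with versipelostatin alone, 2 lower in 2DG+VST, and 3 lower and 7 higher in 2DG+Phen. All genes were not read by their dimmest probe sets, so these counts have no share of all genes beside them. The cause of these shifts was not tested. The other expression limits, and including probe sets with several symbols (also chosen after seeing the data), changed no count by more than 1.5 times.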

Other observations

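Partners of MYC and genes of the mTOR pathway, which sets ribosome production by nutrient supply, were read in the same comparisons. Of 5 MYC partners expressed, MYC included, MXD1, an antagonist of MYC, was at 2.61 with versipelostatin alone and 2.11 in 2DG+Phen against 2DG. MNT, another antagonist, was at −2.70 in 2DG+VST and −2.23 in 2DG+Phen. Among 8 mTOR genes, RICTOR, a subunit of mTOR complex 2, was at −4.04 in 2DG+VST and −2.99 in 2DG+Phen, and 0.85 in 2DG+CC. RPTOR, the matching subunit of mTOR complex 1, was at −1.82 in 2DG+CC. DDIT4, an inhibitor of the pathway, was at 4.28 with versipelostatin alone and −3.46 in 2DG+VST.

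Among the other polymerases, POLR3G, an RNA polymerase III subunit, was at −1.77 with phenformin alone and −2.26 in 2DG+CC. POLR3B was at −1.77 in 2DG+CC, and BDP1, a subunit of the TFIIIB initiation factor, at −1.63 in 2DG+VST. POLR2B, the second subunit of RNA polymerase II, was at −1.57 and −1.60 in 2DG+VST and 2DG+Phen, where POLR2C was at 0.83 and 0.85, and POLR2A was at 0.63 with phenformin alone.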
